A study of Mus musculus with 27 samples.

Results

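Livers of male C57BL/6 mice fed a Western diet were compared with livers of mice fed lab chow, the diet that many feeding studies take as their control. All 5889 genes detected on either diet were described, of the 18194 genes that a probe of the array names alone. The series fed 9 diets, and livers of 3 of the mice fed each diet were put on arrays. This gave 27 liver arrays, 1 per mouse, and the 3 Western and 3 lab chow arrays are the subject here. The Western group (labelled Adjusted Calories) ate a purified diet high in saturated fat and sucrose with added cholesterol, with 42% of calories from fat. The lab chow group (labelled Current LAR Diet) ate the natural ingredient diet of the animal facility, and 3 arrays of the AIN-93M purified diet, low in fat, served as a further point (AIN-93 below). All mice were males of 1 inbred strain, 10 weeks old by the labels, fed for 3 weeks, and their livers were taken in the morning without fasting. The Western diet and lab chow differ in fat, sugar, cholesterol, protein and the kind of ingredients at once, and these cannot be told apart in this pair.

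A liver cell makes cholesterol from acetyl-CoA through mevalonate and squalene, and the transcription factor SREBP2 switches on nearly every enzyme of this route when sterol in the endoplasmic reticulum is scarce. Oxysterols instead activate the receptor LXR, which drives the export of sterol into bile. Fatty acids are ligands of PPARα, the receptor that governs fatty acid oxidation, while CAR, PXR and NRF2 govern the enzymes and carriers that modify and remove foreign compounds.

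Values are log2 intensities that the authors normalized with GCRMA, and a gene's value is the mean over its kept probes. A gene was detected where a probe averaged above log2(100), or 6.64 on the log2 scale, in at least 1 of the 2 diets, and this is called the detection level. The Western diet changed 284 of the 5889 genes against lab chow in limma, fitted over all 27 arrays at an adjusted p under 0.05. This is 4.82% of the genes, with 147 higher (2.5%) and 137 lower (2.33%), and at the level of probes 451 of 9495 (4.75%). Fewer genes rose by over 2-fold (29) than fell by over 2-fold (50). The median difference was 0.60 on the log2 scale among the higher genes and -0.77 among the lower genes, against 0.02 over all detected genes. Leaving out single arrays moved the count most for lab chow replicate 3 (107 genes), Western replicate 2 (114) and lab chow replicate 2 (131). In 276 of the 284 the 3 Western arrays lay wholly above or below the 3 lab chow arrays, as they did in 1444 of all 5889 detected genes. Of the changed genes, 33 were detected on 1 of the 2 diets only, against 310 of all 5889 detected genes. Of the changed genes with several probes, 103 of 103 had all of them moving the same way. A gene was called on the mean of its probes, which favors this, and the share over all detected genes was not computed. The p-values set each difference against the spread between mice of the same diet, pooled over all 27 arrays. In whole liver fewer cells of a type and less RNA per cell cannot be told apart.

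**Figure D1:**
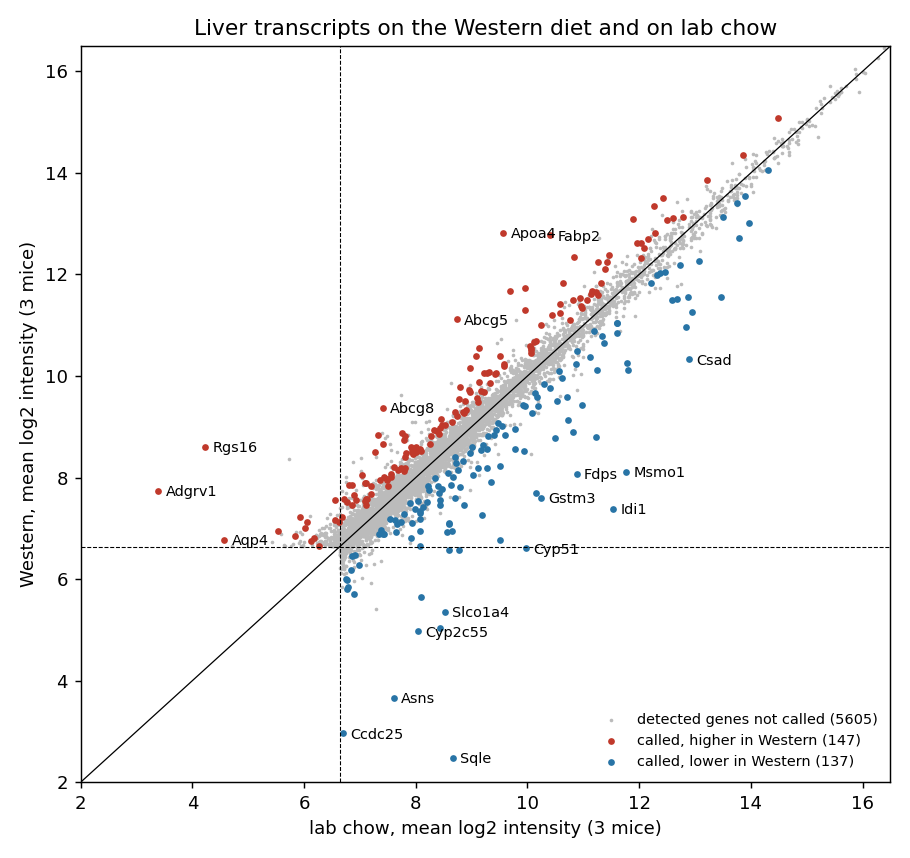
Mean log2 intensity of each of the 5889 detected genes on the Western diet (vertical) and on lab chow (horizontal), 3 mice each. Red points are the 147 genes higher in Western and blue points the 137 lower, the diagonal marks equal levels and dashed lines mark the detection level of 6.64. The named genes far below the diagonal are mostly enzymes of cholesterol synthesis and of foreign compound metabolism.

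Hepatocyte markers dominated the arrays of both diets. None of the 14 detected hepatocyte markers, such as albumin, passed the test, and their summed intensity was 538236 to 591298 in Western arrays and 564186 to 575121 in lab chow arrays. Kupffer cell markers (11 of 20 detected, 0 called) summed to 3869 to 5332 in Western arrays, against 3771 to 5020 in lab chow arrays, and sinusoidal endothelial markers (9 of 17 detected, only Stab2 called, at 152% of lab chow, and not without any 1 of the 6 arrays) to 2528 to 2998 in Western arrays, against 2364 to 2871 in lab chow arrays. Collagen and stellate cell genes (11 of 24 detected, 0 called) summed to 5982 to 7221 in Western arrays, above the 4397 to 5588 of lab chow arrays, and its part in the results was not tested. None of the 13 T and NK cell, 10 B and plasma cell, 9 neutrophil or 9 cholangiocyte markers on the array was detected. Adipocyte markers (3 of 8 detected, 0 called, Adipoq and Lep not detected) summed to 11591 to 21618 in Western arrays, against 10193 to 13729 in lab chow arrays, and the single detected acinar and erythroid markers, Cela1 and Alas2, did not pass the test. The 3′ minus 5′ difference of the Gapdh control probes, a sign of RNA integrity, was 0.98, 0.82 and 0.82 log2 in Western arrays, against 1.51, 1.14 and 1.66 in lab chow arrays. For beta-actin it was 3.09, 2.81 and 2.72 in Western arrays, against 3.44, 2.91 and 3.46 in lab chow arrays, which overlapped. The Gapdh difference was thus lower in every Western array than in any lab chow array, and its part in the results below was not tested.

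Cholesterol synthesis had the lowest medians of the gene lists on the Western diet. Of 21 listed enzymes of its mevalonate and sterol arms, 15 were detected, and 14 of the 15 were lower in Western livers while 0 were higher, with a median difference of -2.43 on the log2 scale. All 4 detected enzymes of the mevalonate arm fell (median -2.37), as did 10 of the 11 of the sterol arm (median -2.43). Of the 15, 3 were detected through lab chow alone.

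Idi1, the isomerase that readies isoprene units for chain growth, stood at 7.52, 7.57 and 7.07 in Western livers, against 11.38, 11.59 and 11.62 in lab chow livers and 10.82, 11.53 and 11.76 in AIN-93 livers. The Western arrays lay far below both other diets, which overlapped. Idi1 in Western livers was 5.66% of lab chow (95% confidence interval 4.05 to 7.93, adjusted p = 7.7e-11). Fdps, which joins those units into farnesyl diphosphate, gave 7.51, 8.20 and 8.49 in Western livers, against 10.54, 11.30 and 10.81 in lab chow livers, a level of 14.2% (8.8 to 22.9, adjusted p = 1.1e-05). Pmvk, the phosphomevalonate kinase, was 26.4% of lab chow (18.9 to 37, adjusted p = 1.5e-05). Hmgcs1, the synthase at the entry of the route, was 31.4% (20.1 to 48.9, adjusted p = 0.0021), the smallest fall of the arm.

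Sqle, the squalene epoxidase that commits squalene to sterols, had values of 2.67, 2.49 and 2.29 in Western livers, against 7.99, 9.12 and 8.86 in lab chow livers and 8.06, 8.60 and 9.37 in AIN-93 livers. All 3 Western arrays lay below the detection level and 1 at the lowest value of the arrays, so that Sqle was at least 4.04-fold lower in Western livers, and its adjusted p of 1.0e-09 tests the fitted difference of -6.18 and not this bound. Msmo1, a methylsterol monooxygenase, gave 7.93, 8.04 and 8.36 in Western livers, against 11.35, 11.92 and 12.05 in lab chow livers, or 7.9% (5.86 to 10.6, adjusted p = 7.7e-11). Cyp51, the lanosterol demethylase, gave 6.33, 6.64 and 6.85 in Western livers, against 9.77, 10.07 and 10.09 in lab chow livers, or 9.67% (7.19 to 13, adjusted p = 2.7e-10). The Western means of Cyp51 and Lss lay at or near the detection level, so that the size of their fall is less certain.

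The remaining enzymes fell by less. Nsdhl was 15.1% of lab chow, Dhcr7, a sterol reductase near the end of the route, 18.3%, Fdft1, the squalene synthase, 18.5%, and Lss, which closes the sterol rings, 24.7%, with adjusted p between 5.5e-08 and 5.6e-04. Tm7sf2 was 31.1% and Hsd17b7 35.1%. Sc5d was 59.7% of lab chow (43.8 to 81.2, adjusted p = 0.048), close to the threshold. Without any 1 of the 6 arrays, 9 of the 11 sterol arm genes fell. Ebp, the sterol isomerase, did not pass the test, at 12.45, 12.48 and 12.71 in Western livers, against 12.83, 12.96 and 13 in lab chow livers (adjusted p = 0.13). Outside the list, Lbr, which carries a sterol reductase activity, was 53.4% of lab chow (adjusted p = 0.0039) and Erg28, a scaffold of sterol enzymes in yeast, 52.7% (adjusted p = 0.0025), and both were chosen after their values were seen.

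**Figure D2:**
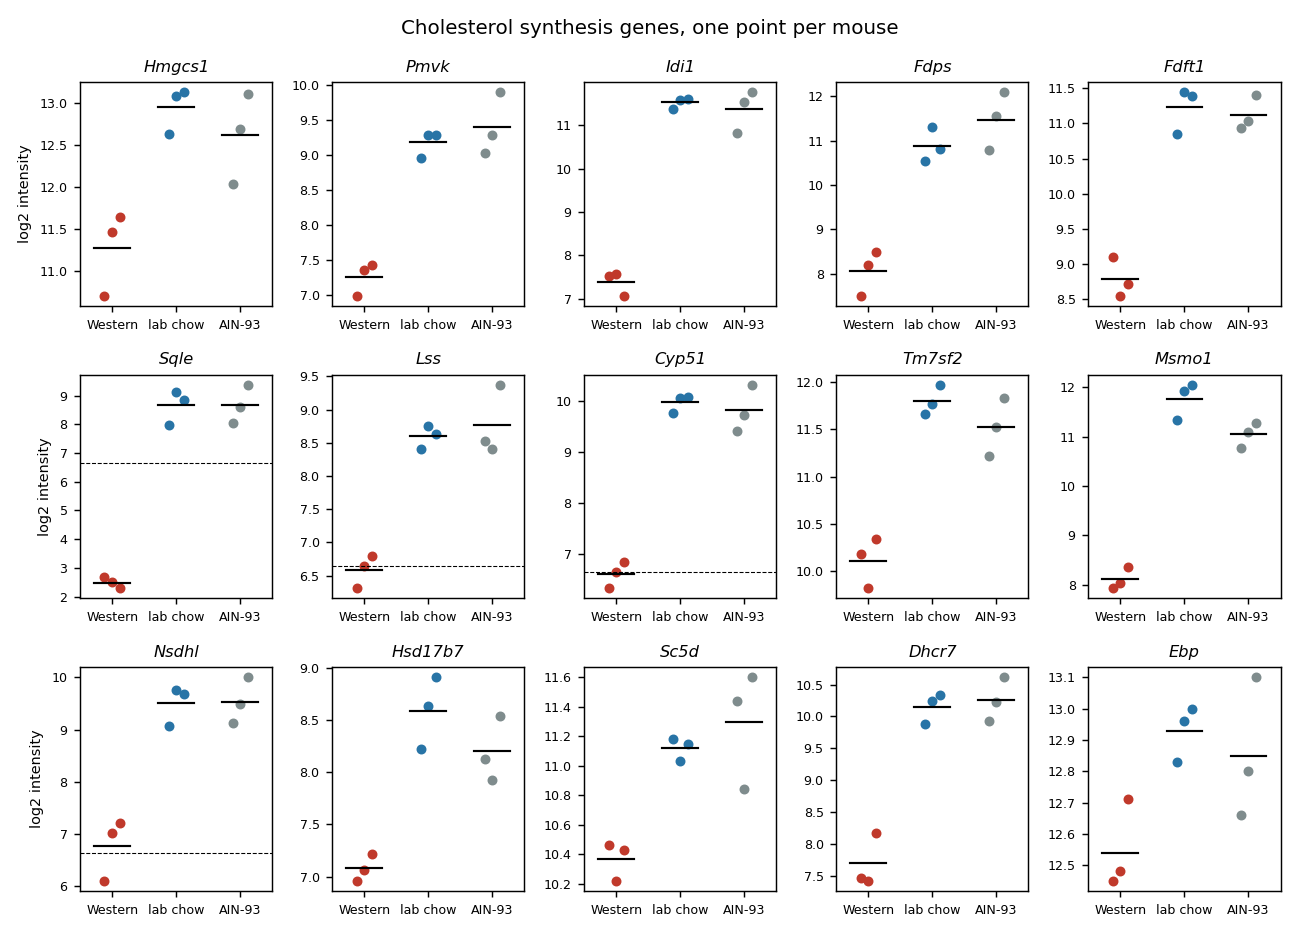
Log2 intensity of the 15 detected cholesterol synthesis genes in each Western, lab chow and AIN-93 liver. Points are single mice, bars are means of 3 mice, with a dashed line at the 6.64 detection level where the panel reaches it. In every panel but Ebp the Western mice lie below the lab chow mice by a difference that passed the test, while lab chow and AIN-93 mice overlap or lie close.

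Genes that control sterol supply moved in both directions. Of 9 detected, 5 fell and 1 rose. Rdh11, a retinal reductase and known SREBP target, was 21.7% of lab chow (14.1 to 33.2, adjusted p = 6.9e-05), Stard4, a carrier of cholesterol between membranes, 35.4% (adjusted p = 3.4e-05), and Tmem97 51.6% (adjusted p = 0.0023). Npc2, which hands cholesterol out of lysosomes, was at 71.7% (adjusted p = 0.0498). The 2 Insig genes, whose proteins hold SREBP in the endoplasmic reticulum, differed in direction. Insig1, itself an SREBP target, stood at 11.80, 11.03 and 11.83 in Western livers, against 12.65, 13.05 and 12.91 in lab chow livers, or 40.2% (27.2 to 59.3, adjusted p = 0.0057, and adjusted p = 0.057 without Western replicate 2). Insig2 stood at 12.65, 13.25 and 13.40 in Western livers, against 11.75, 12 and 11.91 in lab chow livers, or 232% (167 to 320.3, adjusted p = 0.0023). In neither gene did the arrays of the 2 diets overlap. Srebf2 was not detected.

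The promoters of the sterol genes that fell were searched for short boxes. RefSeq promoter windows (GRCm38.p6, 250 bases before to 50 after the start) were given for 15 of these 19 genes. CCAAT, the box bound by NF-Y, a partner of SREBP at many promoters, occurred on either strand in 15 of the 15, against 43.1% of the 4857 detected genes with a window and 41.1% of all 27025 genes. It occurred in 54.8% of the 221 other changed genes with a window, and in 3 of the 4 genes of the sterol lists that did not fall. CACCCCAC, a core of the sterol regulatory element, occurred in 1 of the 15, Hmgcs1, against 3.75% of detected genes. A match describes letters and not a bound site. The stretches below are the 140 bases before the start in 6 genes that fell, shown because they carry these letters, with CCAAT (or ATTGG, the same box on the other strand) and CACCCCAC in capitals.
Hmgcs1 (chr13:119690211-119690350, plus strand): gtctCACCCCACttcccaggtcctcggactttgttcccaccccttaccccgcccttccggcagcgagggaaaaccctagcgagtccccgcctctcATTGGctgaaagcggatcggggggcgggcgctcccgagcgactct
Idi1 (chr13:8885466-8885605, plus strand): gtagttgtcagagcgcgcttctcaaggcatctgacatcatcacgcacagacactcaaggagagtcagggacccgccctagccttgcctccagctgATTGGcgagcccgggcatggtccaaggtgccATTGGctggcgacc
Cyp51 (chr5:4104698-4104837, minus strand): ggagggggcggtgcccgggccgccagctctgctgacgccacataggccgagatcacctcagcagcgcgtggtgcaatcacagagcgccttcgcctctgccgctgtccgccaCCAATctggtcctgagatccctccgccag
Msmo1 (chr8:64733579-64733718, minus strand): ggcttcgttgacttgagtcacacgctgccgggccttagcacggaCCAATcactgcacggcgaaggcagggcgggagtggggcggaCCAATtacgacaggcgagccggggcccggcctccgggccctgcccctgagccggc
Lss (chr10:76531465-76531604, plus strand): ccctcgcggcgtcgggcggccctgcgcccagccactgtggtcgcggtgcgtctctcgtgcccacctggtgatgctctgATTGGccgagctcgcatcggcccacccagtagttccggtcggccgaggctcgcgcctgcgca
Tmem97 (chr11:78550736-78550875, minus strand): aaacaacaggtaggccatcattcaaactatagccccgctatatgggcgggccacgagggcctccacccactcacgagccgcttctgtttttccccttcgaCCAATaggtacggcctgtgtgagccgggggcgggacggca

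Of 10 detected LXR targets and genes of sterol efflux, 4 were higher in Western livers, 0 were lower and 6 did not pass. Abcg5 and Abcg8 are the partners in the canalicular pump that moves sterols into bile, and RefSeq places their starts 110 bases apart on chromosome 17, on opposite strands (Abcg8 has another start listed). Abcg5 gave 11.47, 10.83 and 11.06 in Western livers, against 8.93, 8.50 and 8.80 in lab chow livers, or 519% of lab chow (354 to 761, adjusted p = 4.8e-06). Abcg8 gave 9.73, 9.10 and 9.27 in Western livers, against 7.59, 7.15 and 7.51 in lab chow livers, or 387% (264 to 567, adjusted p = 7.1e-05). In both genes the same Western mouse, replicate 1, was highest. Abca1, which loads cholesterol onto nascent HDL, was 155% of lab chow (adjusted p = 6.7e-04) and the phospholipid enzyme Lpcat3 153% (adjusted p = 0.01, and up to 0.066 without Western replicate 2 or 3 or lab chow replicate 1). Nr1h3, which encodes LXRα, did not pass the test (adjusted p = 0.9).

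Among 19 detected genes of bile acid synthesis, 1 fell and 0 rose. This was Cyp39a1, an oxysterol hydroxylase, at 32.3% of lab chow (23.1 to 45.1, adjusted p = 1.2e-04). Cyp7a1, the rate-limiting enzyme, varied widely between Western mice, at 9.09, 7.79 and 6.41, against 8.96, 9.22 and 8.73 in lab chow mice (adjusted p = 0.45). Of 12 detected transporters of bile salts and organic anions, Abcb4, the canalicular phospholipid flippase, was 161% (adjusted p = 0.012), Abcg2 164% (adjusted p = 0.041), and Slco1a4, an uptake carrier, was lower. Slco1a4 gave 5.91, 4.83 and 5.36 in Western livers, all below the detection level, against 8.50, 8.37 and 8.69 in lab chow livers, at least 3.68-fold lower (adjusted p = 0.0019 for the fitted difference). Abcb4 lost its call without Western replicate 3 or lab chow replicate 2 (adjusted p up to 0.071), and Abcg2 without 5 of the 6 arrays in turn, all but Western replicate 1 (up to 0.15).

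Of 15 detected lipogenesis genes, 2 rose and 1 fell. Both that rose are regulators. Srebf1, which encodes the lipogenic SREBP1, stood at 12.90, 11.77 and 12.35 in Western livers, against 11.09, 10.89 and 10.53 in lab chow livers, or 283% (178 to 451, adjusted p = 0.0085, and 0.059 without lab chow replicate 3). Mlxipl, which encodes the sugar-responsive factor ChREBP, was 251% (179 to 351, adjusted p = 0.0015). Fasn, the fatty acid synthase, gave 10.66, 9.23 and 10.93 in Western livers, against 10.23, 10.42 and 10.14 in lab chow livers (adjusted p = 0.99), and Acaca, which makes malonyl-CoA, 7.78, 7.51 and 8.73 in Western livers, against 7.47, 7.45 and 7.35 in lab chow livers (adjusted p = 0.61). Acss2, an acetyl-CoA synthetase and SREBP target, was 34.7% of lab chow (21.9 to 55.1, adjusted p = 0.0066, and 0.057 without lab chow replicate 3). Of 10 genes listed under polyunsaturated fatty acid synthesis 3 fell. These were the desaturase Fads1 at 58.7% of lab chow (adjusted p = 0.017), the elongase Elovl1 at 61.7% and the ligase Acsl4 at 64.1%. Each of the 3 lost its call without Western replicate 2 or lab chow replicate 3, among others. The adjusted p then reached up to 0.098 for Fads1, 0.23 for Elovl1 and 0.095 for Acsl4.

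Fabp2 and Apoa4, both lipid carriers, rose. Fabp2, a fatty acid binding protein best known from the intestine, gave 12.56, 12.77 and 12.98 in Western livers, against 10.42, 10.46 and 10.36 in lab chow livers and 11.59, 11.66 and 11.42 in AIN-93 livers. Its 3 groups did not overlap, and Western livers held 514% of lab chow (394 to 669.8, adjusted p = 1.5e-08). Apoa4, an apolipoprotein of triglyceride-rich particles, gave 12.31, 12.86 and 13.30 in Western livers, against 9.57, 9.70 and 9.45 in lab chow livers and 11.42, 12.54 and 11.69 in AIN-93 livers, or 952% of lab chow (557 to 1627, adjusted p = 6.9e-06). Apoc2, the activator of lipoprotein lipase, was 212% (adjusted p = 0.0011) and Apom, an HDL apolipoprotein, 57.3% (adjusted p = 0.0018). These were the 3 called among 18 apolipoprotein and VLDL assembly genes.

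Of 11 genes of fatty acid uptake, Fabp2 and Slc27a2, a fatty acid transport protein (152%, adjusted p = 0.013, and up to 0.073 without Western replicate 2 or lab chow replicate 2), rose. Mgll, the monoglyceride lipase, was 266% of lab chow (187 to 379, adjusted p = 0.0013) and the only 1 of 13 droplet and lipolysis genes to pass. The droplet coat gene Plin2 stood at 12.54, 13.20 and 13.77 in Western livers, against 12.38, 12.33 and 12.47 in lab chow livers (adjusted p = 0.058). Cd36, the scavenger receptor, spread from 6.92 to 10.33 over the Western mice, against 6.94 to 7.82 in lab chow mice (adjusted p = 0.18). Among 14 glycerolipid synthesis genes only the choline kinase Chkb passed, at 144%, and it lost its call without Western replicate 2, Western replicate 3 or lab chow replicate 2 (adjusted p up to 0.11).

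Of 23 detected genes of mitochondrial β-oxidation and ketogenesis, 9 rose, 0 fell and 14 did not pass. All 23 differences were above 0, and the median was 0.39, against 0.02 over all genes. The 9 ranged from Acadvl at 121% to Etfdh and Bdh1 at 157% of lab chow. Acadm, the medium-chain dehydrogenase, gave 12.55, 12.92 and 12.98 in Western livers, against 12.42, 12.26 and 12.15 in lab chow livers, groups that did not overlap (145%, 118 to 178, adjusted p = 0.033). Cpt1a, the gate of the mitochondrion for long chains, was at 145% without passing (100.5 to 208, adjusted p = 0.25). The calls were fragile. Of these genes 0 passed without Western replicate 2, lab chow replicate 2 or lab chow replicate 3, 3 without Western replicate 3, 5 without lab chow replicate 1, and 5 with arrays centred on their medians.

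Of 25 peroxisomal and omega-oxidation genes, 3 rose, 0 fell and 22 did not pass. Ehhadh, the bifunctional enzyme of peroxisomal β-oxidation, gave 12.16, 12.27 and 12.32 in Western livers, against 11.35, 11.12 and 11.31 in lab chow livers and 10.33, 10.80 and 10.59 in AIN-93 livers, with no overlap among the 3 groups (199% of lab chow, 151 to 262, adjusted p = 0.0031). Aldh3a2, a fatty aldehyde dehydrogenase, was 231% (adjusted p = 0.01) and Decr2, a peroxisomal reductase of unsaturated chains, 171% (adjusted p = 0.022). Aldh3a2 lost its call without Western replicate 3 or lab chow replicate 3 (adjusted p up to 0.059), and Decr2 without Western replicate 2 or 3 or lab chow replicate 1 or 3 (up to 0.10). Ppara itself, at 10.28, 10.37 and 10.55 in Western livers, against 9.21, 9.62 and 9.67 in lab chow livers, was 187% of lab chow (144 to 242, adjusted p = 0.0047). It was the only 1 of 10 other PPARα targets and the only 1 of 24 nuclear receptors and cofactors to pass.

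Of 24 detected genes of sugar handling and glucose output, 6 rose, 0 fell and 18 did not pass. Rgs16, a regulator of G protein signaling that is sensitive to carbohydrate, gave 8.30, 8.74 and 8.79 in Western livers, against 4.51, 4.89 and 3.30 in lab chow livers and 10.00, 10.87 and 9.33 in AIN-93 livers. All lab chow arrays were below the detection level, so that Rgs16 was at least 3.92-fold higher on the Western diet (adjusted p = 0.009 for the fitted difference, and 0.061 without lab chow replicate 3). Khk, the fructose kinase, was 176% of lab chow (adjusted p = 0.0499), Gckr, the glucokinase regulator, 170.3% (adjusted p = 0.033) and Pygl, the liver glycogen phosphorylase, 155% (adjusted p = 0.042), and Khk and Pygl lost their calls without any 1 of the 6 arrays, Gckr without Western replicate 2 or lab chow replicate 2 or 3 (adjusted p up to 0.2). Of the 24 genes 0 passed without lab chow replicate 3, 2 without Western replicate 3 or lab chow replicate 1, and 3 without replicate 2 of either diet. Pklr, the pyruvate kinase, was at 8.40, 8.72 and 8.50 in Western livers, against 7.68, 7.33 and 7.63 in lab chow livers, and did not pass (adjusted p = 0.25). On diet restriction, the lab chow at 75% of free intake, Rgs16 averaged 7.3 log2 above lab chow, against 4.38 on Western. Khk and Gckr averaged 0.65 and 0.85 above lab chow there, against 0.81 and 0.77 on Western. Pygl averaged 13.01 on diet restriction, below its lab chow mean of 13.22. The part of any single diet component in these differences was not tested.

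Glutathione S-transferases, which couple foreign and oxidized compounds to glutathione, were lower in Western livers. Of 19 detected, 7 fell and 0 rose, and the median was -0.53. Gstm3 gave 7.05, 7.35 and 8.38 in Western livers, against 10.15, 10.07 and 10.51 in lab chow livers and 8.48, 7.83 and 8.39 in AIN-93 livers. Here the lab chow mice stood apart from the Western and the AIN-93 mice (Western at 16% of lab chow, 9.11 to 28.1, adjusted p = 2.0e-04). On the atherogenic diet, with cholesterol and cholic acid, Gstm3 averaged 10.97, above the lab chow mean of 10.24, and on the high-fat diet 8.14. Gsta4 and Gstm1 also averaged above lab chow on the atherogenic diet, and Gsta2, Mgst3, Gstm2 and Gstt2 below it. Gsta4, which acts on lipid aldehydes, gave 8.90, 9.14 and 9.38 in Western livers, against 10.90, 10.56 and 10.71 in lab chow livers and 8.33, 8.47 and 8.38 in AIN-93 livers, or 33.5% (22.8 to 49.1, adjusted p = 9.2e-04). The other called members ran from Gsta2 at 27.5% (adjusted p = 0.027) through Mgst3 at 30.9%, Gstm2 at 41.2% and Gstm1 at 46.5% to Gstt2 at 47.1%. Gsta2 lost its call without any 1 of the 6 arrays (adjusted p up to 0.1). These families hold close paralogs, and whether a probe reads 1 of them alone was not tested.

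None of 18 detected genes of glutathione synthesis and the NRF2 response passed, but 15 of the differences were below 0 and 3 above. Their median was -0.16, against 0.02 over all genes. Gclc, the rate-limiting ligase subunit, gave 11.82, 12.16 and 12.21 in Western livers, against 11.83, 11.96 and 12.05 in lab chow livers (108%, 83.9 to 140, adjusted p = 0.79). In the promoters of the called transferases the antioxidant response element TGACNNNGC was in 0 of the 5 genes with a window, against 14% of all genes. With 5 genes these shares cannot be told apart.

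Of 18 detected CAR and PXR targets, 4 fell and 0 rose. Cyp2c55, a cytochrome P450, gave 4.39, 5.10 and 5.42 in Western livers, all below the detection level, against 8.03, 7.80 and 8.29 in lab chow livers and 4.63, 4.11 and 4.69 in AIN-93 livers. It was at least 2.63-fold lower in Western livers (adjusted p = 9.8e-07 for the fitted difference). Akr1c19, an aldo-keto reductase, was 26.4% of lab chow (20.1 to 34.6, adjusted p = 7.5e-07), Ces2a, a carboxylesterase, 45.1% (adjusted p = 7.2e-05), and the fourth was Slco1a4. Cyp1a2, the chief AHR target of liver, was 47.6% of lab chow (adjusted p = 0.0033), the 1 of 3 detected AHR genes to pass. Cyp3a11, the main PXR target P450, gave 14.50, 14.70 and 14.90 in Western livers, against 15.24, 15.15 and 15.24 in lab chow livers, without overlap but also without passing (adjusted p = 0.22). Of 17 genes of glucuronidation and sulfation 0 passed. Of 28 aldehyde and carbonyl enzymes, Akr1c19, Akr1c13 (67.5%) and Cbr1 (68.2%) fell and Aldh3a2 rose. Akr1c13 and Cbr1 lost their calls without lab chow replicate 1 or 3, among others (adjusted p up to 0.071 and 0.23).

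**Figure D3:**
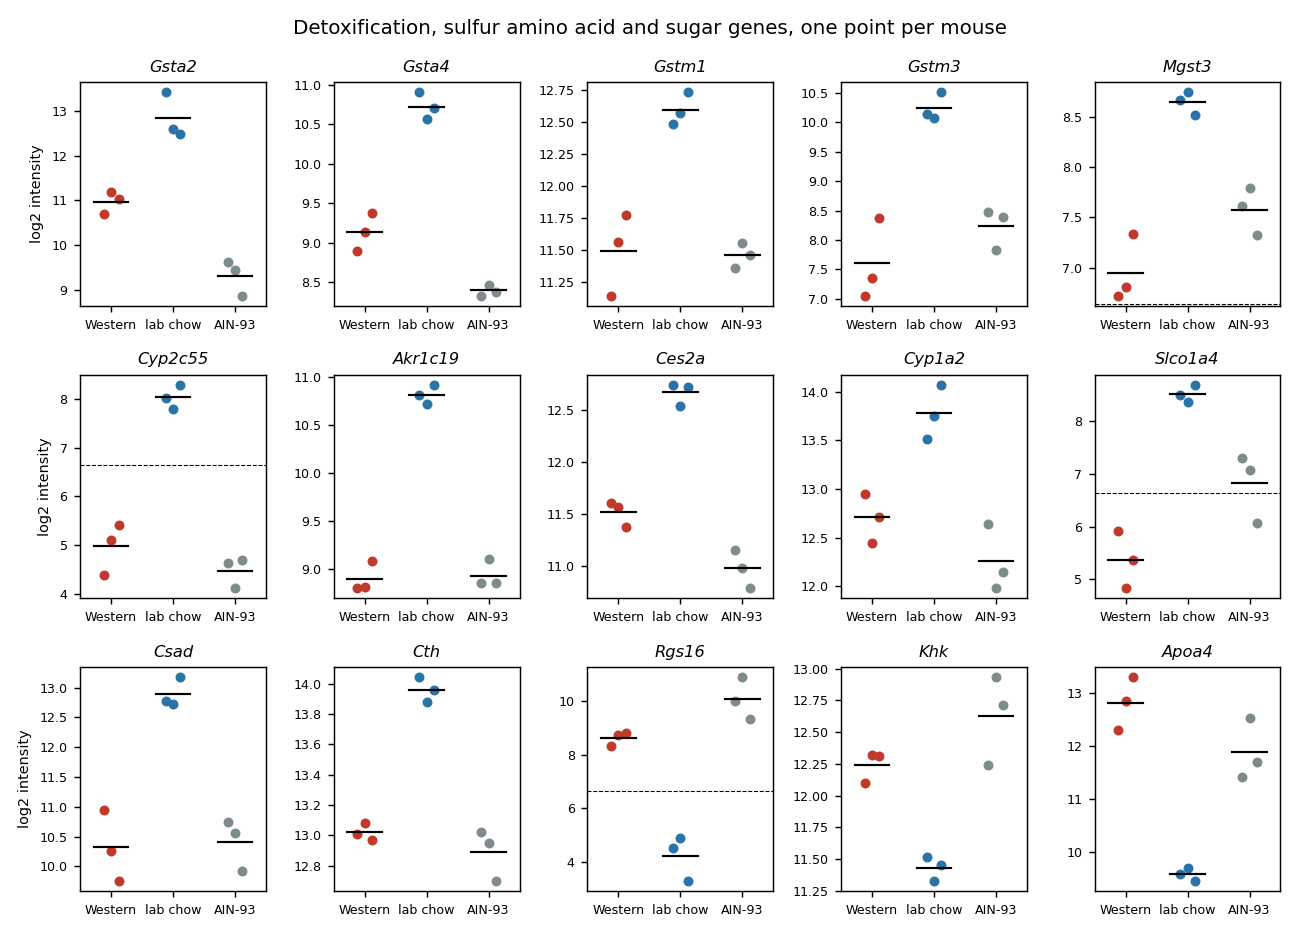
Log2 intensity of 15 genes of detoxification, sulfur amino acid metabolism and sugar handling, with Apoa4, in each Western, lab chow and AIN-93 liver. Points are single mice, bars are means of 3 mice, with a dashed line at the 6.64 detection level where the panel reaches it. In these panels the lab chow mice stand apart from the Western mice, and for Csad, Cth, Akr1c19 and Cyp2c55 the Western and AIN-93 mice lie close together.

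Of 25 detected genes of methionine, cysteine and taurine metabolism, 2 fell, 2 rose and 21 did not pass. Csad, the decarboxylase of taurine synthesis, gave 10.95, 10.26 and 9.76 in Western livers, against 12.78, 12.72 and 13.17 in lab chow livers and 10.74, 10.56 and 9.93 in AIN-93 livers, or 16.9% of lab chow (9.07 to 31.5, adjusted p = 9.2e-04). Cth, which makes cysteine, was 52.1% (adjusted p = 0.028, lost without any 1 of the 6 arrays). Dmgdh and Ahcyl1, of methyl group metabolism, were higher at 136% and 137%, and both lost their calls without replicate 2 or 3 of either diet (adjusted p up to 0.12). Among 51 genes of the urea cycle and amino acid catabolism, Asns and Got1 fell and Hibadh rose (128%, adjusted p up to 0.073 without Western replicate 2 or 3 or lab chow replicate 2). Asns, the asparagine synthetase, gave 4.12, 3.78 and 3.09 in Western livers, all below the detection level, against 6.92, 8.47 and 7.45 in lab chow livers, at least 1.96-fold lower (adjusted p = 0.0014 for the fitted difference). Asns was also the only 1 of 23 genes of the endoplasmic reticulum stress response to pass. Got1, the cytosolic aspartate aminotransferase, was 34.3% of lab chow (adjusted p = 0.039, lost without any 1 of the 6 arrays).

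Other genes with large changes belong to no single route. Adgrv1, a large adhesion receptor known from hearing, gave 7.53, 8.08 and 7.62 in Western livers, against 3.27, 3.29 and 3.62 in lab chow livers and 7.28, 7.45 and 6.70 in AIN-93 livers, at least 2.14-fold higher (adjusted p = 9.5e-09). On the other 6 diets Adgrv1 averaged below the detection level, as on lab chow. Ccdc25 gave 2.97, 2.70 and 3.22 in Western livers, against 6.52, 6.24 and 7.33 in lab chow livers (at least 1.04-fold lower, adjusted p = 1.2e-06), and its lab chow level was itself near the detection level. Enho, which encodes the peptide adropin, gave 6.40, 4.86 and 3.86 in Western livers, against 8.16, 8.61 and 8.54 in lab chow livers (at least 3.46-fold lower, adjusted p = 0.013, and up to 0.065 without replicate 2 or 3 of either diet). Tsc22d1 was 345% of lab chow (adjusted p = 0.0062), Tpm2, a tropomyosin, 285% (adjusted p = 0.0079) and the water channel Aqp4 at least 1.1-fold higher (adjusted p = 0.0025). Arrdc3, an arrestin-domain protein, was 397% (adjusted p = 0.047), with no call left without any 1 of the 6 arrays. Tpm2 lost its call without Western replicate 3 or lab chow replicate 3 (adjusted p up to 0.058).

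Ribosomal protein genes leaned lower, with 8 of 38 detected called lower, 0 higher and a median of -0.22. The called members lay close to lab chow, from Rpl37 at 67.3% to Rpl38 at 83.5%, and 0 or 1 of them passed without Western replicate 2 or 3 or any 1 lab chow array. The remaining lists held few changes. Of 17 retinoid genes, Rdh11 fell, and Dhrs4 (169.6%) and Bco2 (149.8%) rose. Of 18 genes of heme and iron, Tfrc, the transferrin receptor, fell to 43.3% (adjusted p = 0.042). Of 37 genes of respiratory complexes II to V, Atpif1 fell to 71.5% (adjusted p = 0.041). Of 18 genes of the insulin and IGF axis, Enho and Sesn1 (66.8%) fell. Tfrc, Atpif1 and Sesn1 lost their calls without several single arrays, Western replicate 2 and lab chow replicates 1 and 2 among them (adjusted p up to 0.25). Bco2 (adjusted p up to 0.072) was also lost without Western replicate 2 or lab chow replicate 3. Rtn4 (201%, and adjusted p = 0.0502 without Western replicate 2) and Slco1a4 were the called ones of 5 detected genes listed as higher in female liver.

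Several lists held no called gene in limma, namely 26 acute phase and metallothionein genes, 36 of complement and coagulation, 22 of the interferon response, 5 of activated macrophages, 12 clock genes, 19 genes higher in male liver, 18 heat shock genes, 33 subunits of complex I, 31 of the proteasome and 7 cell cycle genes. Over all detected genes 1128 passed an unadjusted p of 0.05. Saa1, an acute phase protein, gave 10.61, 10.90 and 11.42 in Western livers, against 10.91, 11.27 and 11.56 in lab chow livers, and 13.51, 11.13 and 13.89 in AIN-93 livers. With other settings up to 2 members of the complement list and up to 2 of the male list passed in 1 direction. For the interferon and complex I lists it was up to 1. Of 14 detected genes in a list of genes named in the study of these same samples, Gsta4 passed. The list left out some genes that the study also names, and of these Gsta2, Insig1, Abcg5 and Abcg8 passed.

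**Figure D4:**
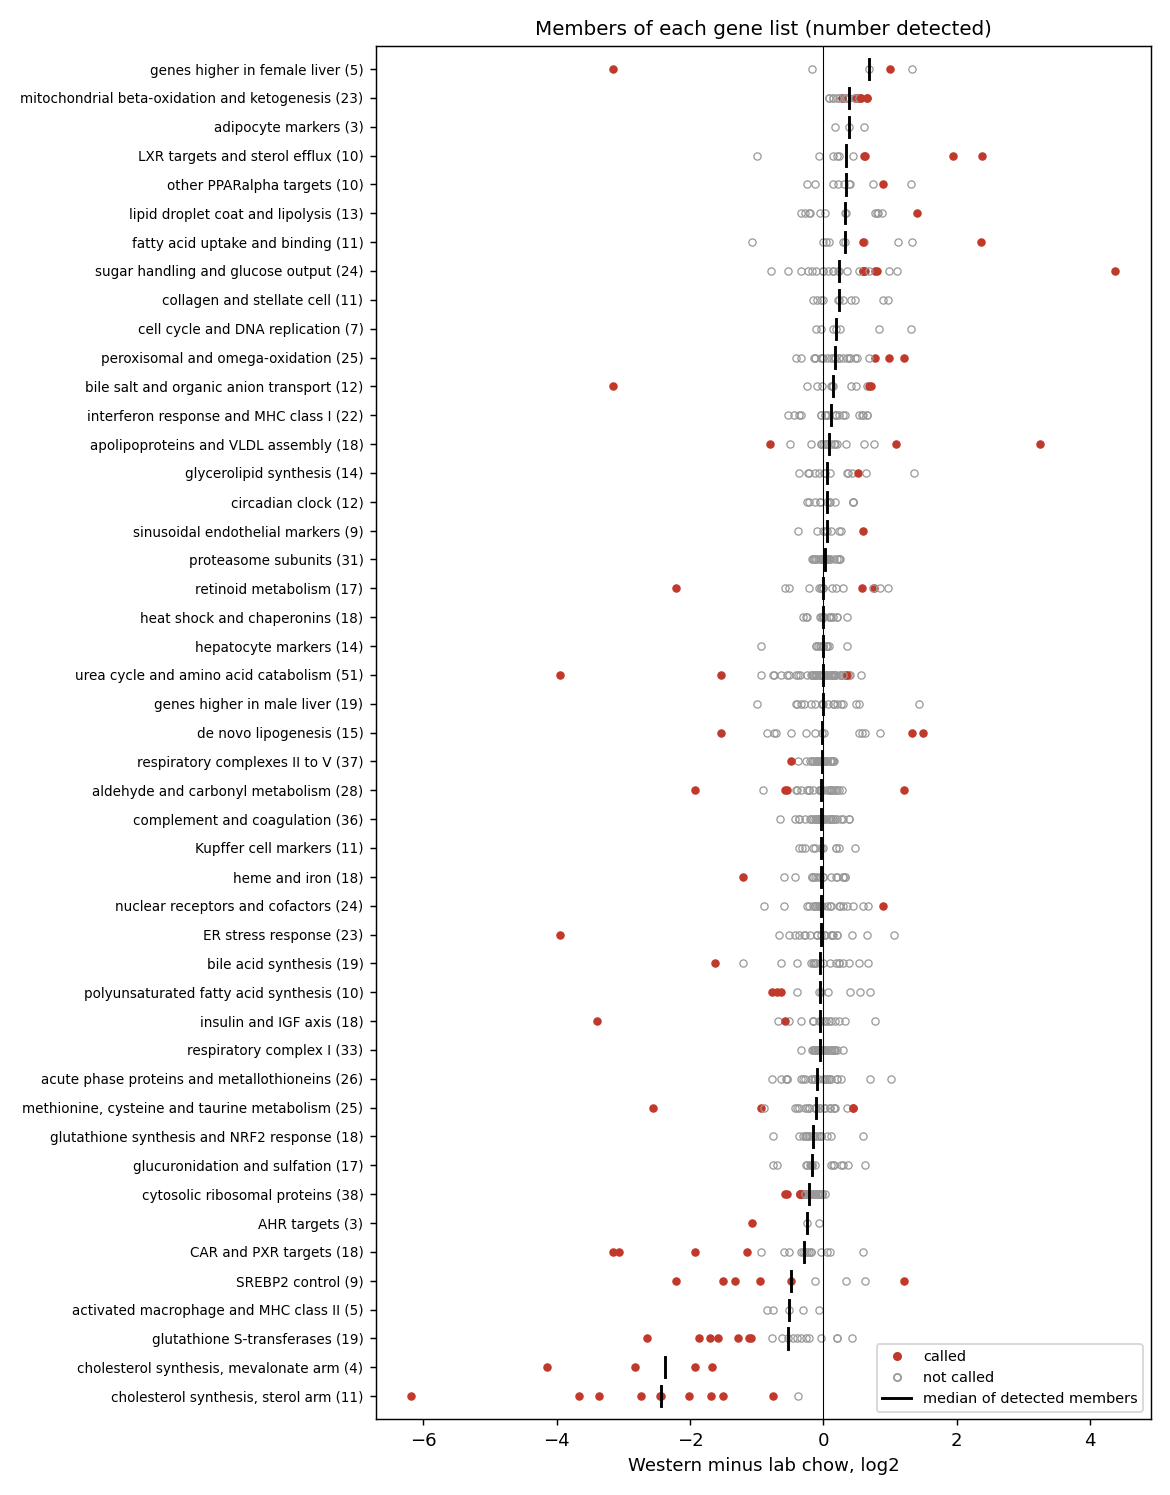
Western minus lab chow difference on the log2 scale for every detected member of the gene lists with at least 3 detected members, number detected in brackets. Filled points passed the test, open points did not, and vertical bars are medians of the detected members. The 2 arms of cholesterol synthesis stand at the low end with medians of -2.37 and -2.43, and mitochondrial β-oxidation has all 23 members above 0.

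AIN-93 gives a further point for the pair. The comparisons of Western with AIN-93 and of lab chow with AIN-93 share arrays with the comparison above and are given side by side. In limma 518 genes (8.8%) differed between Western and AIN-93, with 274 higher (4.65%) and 244 lower (4.14%), and 135 (2.29%) between lab chow and AIN-93, with 79 higher (1.34%) and 56 lower (0.951%). Of the 284 genes that differed between Western and lab chow, the AIN-93 mean lay nearer to lab chow in 204 and nearer to Western in 80, and between the 2 diets in 185. The 284 genes were chosen for a gap between these 2 diets, which favors an AIN-93 mean between them. Such counts were not made over all detected genes. For all 14 cholesterol synthesis genes, all 6 called genes of sterol control, all 4 LXR genes and all 9 mitochondrial genes the AIN-93 mean lay nearer to lab chow. For 6 of 7 glutathione S-transferases, all 4 CAR and PXR targets and 5 of 6 sugar genes it lay nearer to Western.

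Single genes show both kinds. Idi1 on the Western diet was 6.34% of AIN-93 (adjusted p = 3.4e-10) and on lab chow 112% (adjusted p = 0.81). Abcg5 was 445% (adjusted p = 1.9e-05) and 85.6% (adjusted p = 0.75). In these, Western was the diet that differed from both others among the 3. In the wider series Abcg5 also averaged 3.79 log2 above lab chow on the atherogenic diet and 2.03 on diet restriction, against 2.38 on Western. It averaged 0.22 to 0.49 above lab chow on the remaining diets. Akr1c19 on the Western diet was 97.5% of AIN-93 (adjusted p = 0.93) and on lab chow 370.1% (adjusted p = 2.4e-06), and Csad was 94.6% (adjusted p = 0.94) and 559.6% (adjusted p = 0.0024). Gsta2 was above AIN-93 on both, at 314% (adjusted p = 0.034) and 1142% (adjusted p = 1.6e-04).

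**Figure D5:**
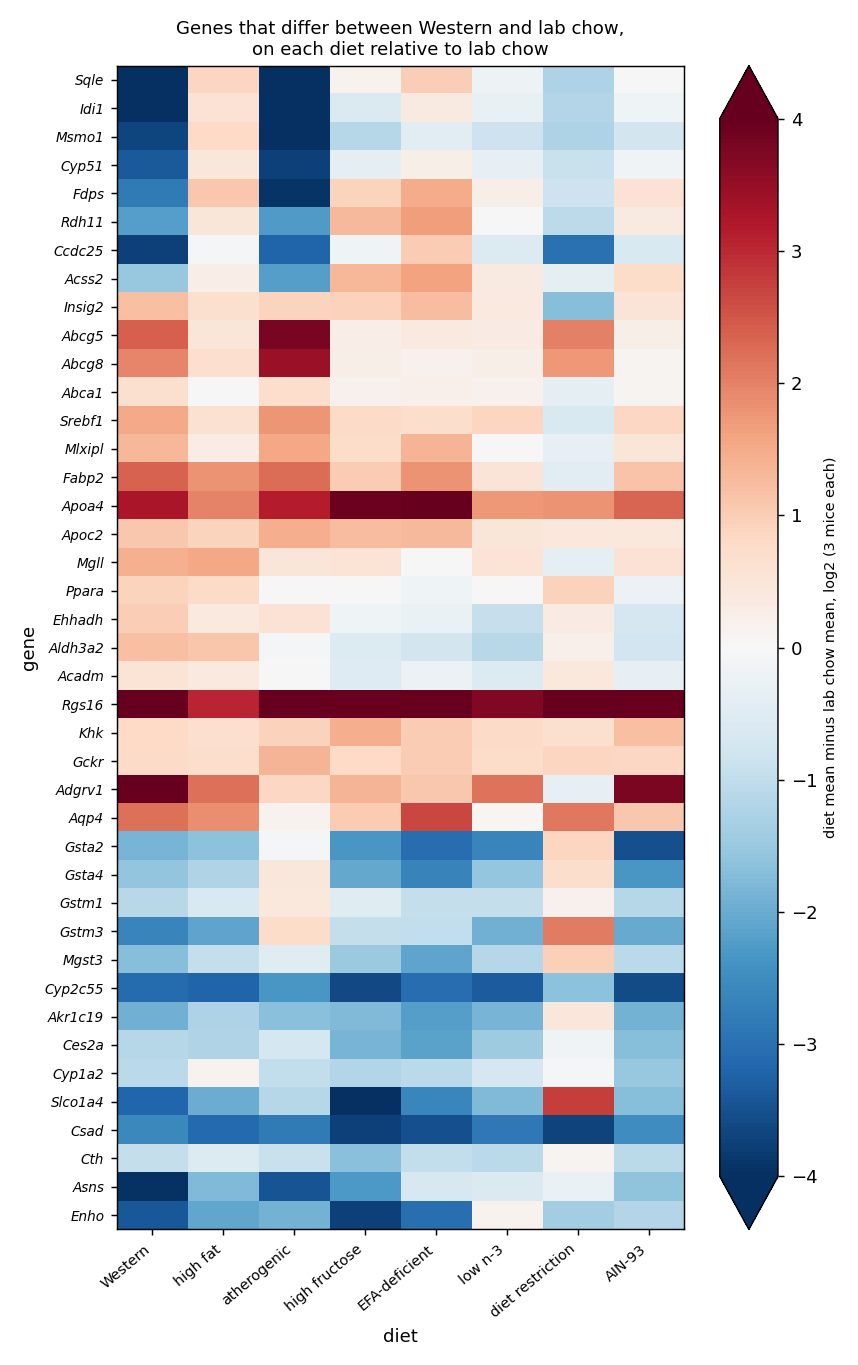
Mean of each diet minus the mean of lab chow, on the log2 scale (3 mice each), for 41 genes that differ between Western and lab chow. Blue is lower and red higher than lab chow, and colors saturate at 4. Sqle, Idi1, Msmo1 and Cyp51 lie at -3.37 or lower on the Western and atherogenic diets and at -1.23 or higher on the other diets, while Cyp2c55 and Csad lie below lab chow on all 8 other diets.

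The other diets place these genes in the wider series. Among the 8 diets fed without restriction, Western was the highest diet for 73 of the 147 genes that rose and the lowest for 76 of the 137 that fell, and lab chow was the lowest for 63 of the 147 and the highest for 34 of the 137. These genes were chosen for a difference between the 2 diets, which favors both diets as extremes. The same counts over all detected genes were not made. On the atherogenic diet, which holds cholesterol and cholic acid, Sqle averaged 2.73, Idi1 7.32 and Cyp51 6.24, near the Western means of 2.48, 7.39 and 6.61. On the high-fat diet without added cholesterol they averaged 9.52, 12.10 and 10.42. The difference between high fat and AIN-93 uses no array of the Western or lab chow means. Its p-values use the same spread per gene, pooled over all arrays, so the calls of these comparisons are not independent. How far the shared spread raised the overlaps below was not tested. Between high fat and AIN-93, 594 genes (10.1%) differed, with 388 higher (6.59%) and 206 lower (3.5%). Of the 147 genes higher in Western than lab chow, 35 (23.8%) were higher and 3 (2.04%) lower on high fat than on AIN-93. Of the 137 lower genes, 16 (11.7%) were lower and 16 (11.7%) higher. Among the 147 were Aldh3a2 (366% of AIN-93 on high fat, adjusted p = 3.8e-04), Decr2 (291%, adjusted p = 1.4e-04), Ppara (198%, adjusted p = 0.002) and Mgll (193%, adjusted p = 0.017). Among the lower genes Msmo1 (287%, adjusted p = 2.6e-04) and Hsd17b7 (260.2%, adjusted p = 9.3e-04) went the other way on high fat.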

How the data were processed

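Liver RNA of 27 mice was measured on Affymetrix whole-genome mouse arrays, 1 per mouse, and the deposited log2 values are those the authors background corrected and normalized with GCRMA, with the version not given in the sources used here. GCRMA pulls dim probes to a shared lowest value, which hides spread near it, and the number of arrays limits precision. Of 45101 probes, 9495 averaged above log2(100) on the Western diet or lab chow, and the kept probes naming 1 gene were averaged to 5889 genes. Differences were fitted with limma 3.58.1 (R 4.3.3) over all 27 arrays with 1 coefficient per diet, and p-values were adjusted by Benjamini-Hochberg in each comparison at 0.05. Tables and figures used Python 3.11.15, pandas 2.3.3, numpy 2.4.6 and matplotlib 3.10.9. The percent of lab chow is 2 to the power of the difference, with a 95% confidence interval. Where all arrays of a diet lay below log2(100), a bound against that level is given. Named genes were up to 10 called genes per direction with the largest differences and no overlap of arrays, up to 4 called members per list and direction, members of short lists and genes the study names. The members and the 54 gene lists were chosen with earlier results of these data known. On simulated data of 5889 genes for this comparison, the fit recovered 48% of genes changed by 0.5 log2, 92% at 1 and 100% at 2 and 4, with 11 unchanged genes among 181 calls. The simulation drew independent normal noise with each gene's own spread, without a lowest value, linked genes or arrays of unequal quality. Its shares may therefore not hold for the real arrays. Alternatives covered the filter, the arrays fitted, weights, scaling, a replicate block, left-out arrays, Dunnett's test and the probe summary. Promoters are from RefSeq (GRCm38.p6).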

Additional observations from a re-analysis of the deposited data

How the results depend on the processing

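Of 81 named genes that passed the test, 81 kept their direction under every alternative run for them and 32 passed in every one. There were 20 alternatives for most, 19 for Adgrv1, Asns, Cyp2c55 and Sqle, and 17 for Aqp4 and Ccdc25. In 276 of the 284 changed genes the arrays of the 2 diets did not overlap. This favors a kept direction when 1 array is left out. Dunnett's test, the replicate block and the fit on the 6 arrays alone use the same mean differences and could not turn them. The main counts were 284 genes, 451 probes and 96 list members. They were 149, 247 and 59 with no filter on low signal, where 18194 genes were tested, and 625, 1040 and 147 with array weights. Dunnett's test gave 74 genes, 141 probes and 39 list members, and the 6 arrays alone gave 168 genes and 262 probes. Leaving out each array in turn gave 107 to 358 genes, 214 to 635 probes and 50 to 105 list members. The low ends came without lab chow replicate 3 (107 genes, 222 probes, 50 members), Western replicate 2 (114, 214, 51) and lab chow replicate 2 (131, 252, 55), and list members fell to 60 without Western replicate 3. Replicate numbers did not pair the samples (correlations of 0.024, -0.26 and 0.0077 between same-numbered arrays), and with the replicate block 289 genes passed. Centring arrays on their medians left 43.8% of called genes higher, against 51.8%. Directions turned for 3 named genes that did not pass. C8a was at 0.06 with array weights, 0.04 with quantile normalization, and between -0.08 and 0.10 with 1 array left out (0.10 without Western replicate 3, 0.01 without lab chow replicate 2). Elovl3 ran between -0.33 and 0.03 with 1 array left out (0.03 without Western replicate 1, 0.00 without lab chow replicate 3). Lbp was at 0.05 with no filter and 0.05 with all probes, and between -0.23 and 0.17 with 1 array left out (0.17 without lab chow replicate 2). Beyond the smaller or larger number of arrays or genes, the cause of these shifts was not tested. Genes near the detection level have less certain sizes.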
